A study of Mus musculus with 2 samples.

Results

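The genes described here are 36 genes of the endoplasmic reticulum (ER) folding machinery and its stress response, taken by symbol from a table of 22740 genes, and all 36 were in it. RNA was sequenced from whole uteri of 2 wild-type C57BL/6 mice on day 4 of pregnancy, 1 library for each animal. Both animals belong to 1 group, with no treatment and no other genotype, so the data give expression levels and how far 2 animals lay apart, with no contrast between conditions. Uterus 1 and uterus 2 follow the numbering of the sample titles. Values are the authors' RPKM (reads scaled by transcript length and sequencing depth), so levels of different genes can be set side by side. Whole reads could be recovered from these values and summed to 3672372 in uterus 1 and 4078887 in uterus 2. All defining markers of stroma (6 genes), epithelium (6), smooth muscle (5) and endothelium (4) reached 1 RPKM in both uteri, and those of ovary and oviduct reached it for 2 of 3 genes.

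The ER is where secreted and membrane proteins fold. Chaperones hold the chains, disulfide enzymes join their cysteines, and chains that fail are sent back to the cytosol to be degraded. When unfolded chains build up, the membrane sensors ATF6, IRE1 (gene Ern1) and PERK (gene Eif2ak3) start the unfolded protein response, which raises chaperone genes and slows translation. On day 4 the uterus of a mouse prepares for implantation, and its stroma, glands and lumen secrete matrix and luminal proteins. RNA of a whole organ does not tell more cells of a type from more RNA per cell.

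Chaperone genes of the ER are known to share a promoter element, and their promoters were searched for it after the expression values had been seen. The ER stress response element (ERSE) reads CCAAT, then any 9 bases, then CCACG, and is bound by ATF6 together with NF-Y. RefSeq promoter windows (build GRCm38.p6, 250 bases before to 50 after the start) were given for 31 of the 36 genes, all but Hyou1, Manf, Derl1, Atf6 and Ern2. The ERSE letters, read on both strands, were held by 9 of these 31 genes (29.0%) and by 37 of all 27025 genes with such windows (0.137%). The 9 therefore made up 24.3% of all genes that held the letters. Because the element is known from such genes, these shares describe the list of genes and not these 2 uteri. The elements are shown because all 9 genes with them lay higher in uterus 2, as the values below give. Each is written 5′ to 3′ in the direction that starts with CCAAT, with CCAAT and CCACG in capitals:
Hspa5, chr2:34627545-34627563: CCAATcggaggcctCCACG
Hsp90b1, distal, chr10:86168383-86168401: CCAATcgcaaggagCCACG
Hsp90b1, proximal, chr10:86168278-86168296: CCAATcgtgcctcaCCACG
Calr, chr8:87370974-87370992: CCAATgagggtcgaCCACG
Canx, chr11:50139302-50139320: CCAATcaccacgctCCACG
Dnajc3, chr14:119337049-119337067: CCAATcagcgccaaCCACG
Creld2, chr15:88649950-88649968: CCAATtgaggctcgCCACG
Pdia6, chr12:17273297-17273315: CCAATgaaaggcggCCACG
Ero1lb, chr13:12657949-12657967: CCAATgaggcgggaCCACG
Syvn1, chr19:6046532-6046550: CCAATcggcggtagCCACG

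Positions were found by matching the windows to the mm9 genome, the build of the deposited coordinates. The Hspa5 element lay 65 to 47 bases before the start, on the strand of the gene. The elements of Calr, Creld2, Ero1lb and the proximal one of Hsp90b1 lay on the opposite strand. The 250 bases before the start of Hspa5 (chr2:34627360-34627609, plus strand) are shown to place its element, in capitals, beside the other CCAAT letters in lower case:
Hspa5 upstream: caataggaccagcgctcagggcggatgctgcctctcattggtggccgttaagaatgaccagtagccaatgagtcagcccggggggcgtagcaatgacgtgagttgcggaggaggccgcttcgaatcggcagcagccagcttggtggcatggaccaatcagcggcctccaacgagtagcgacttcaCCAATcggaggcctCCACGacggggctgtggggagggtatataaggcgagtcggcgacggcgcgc

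The related ERSE-II letters (ATTGG, any 1 base, CCACG, both strands) were in the windows of Herpud1 and Dnajb11, 2 of 31 genes against 12 of 27025. Neither overlaps an ERSE match. The UPRE letters TGACGTGG, known from XBP1 binding, were in none of the 31 windows and in 0.714% of all genes' windows. Only exact letters were searched for, here and for ERSE. The Hspa5 bases above hold tgacgtga, which ends in A in place of G. They also hold ccaatcagcggcctccaac, which ends in ccaac where the ERSE letters end in CCACG. The letters TGATGCAA, the core of an element read by ATF4 and CHOP, were in the window of Herpud1 (1 of 31) and in 1.03% of all genes' windows. A match of letters is a description of these windows, not of a bound site.

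The ER genes were expressed at a high level. At 1 RPKM or more in both uteri were 34 of the 36, where 58.4% of all genes reached that level. At 10 RPKM or more in both were 31 of the 36, against 30.4% of all genes. At 100 RPKM or more in both were 7 of the 36, against 1.92%. The median over the 36 genes was 24.4 RPKM in uterus 1 and 28.5 RPKM in uterus 2. Their reads made up 0.673% of all reads in uterus 1 (exact 95% interval 0.664 to 0.681) and 0.810% in uterus 2 (0.802 to 0.819). These intervals, like all others here, cover counting error only.

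**Figure D1:**
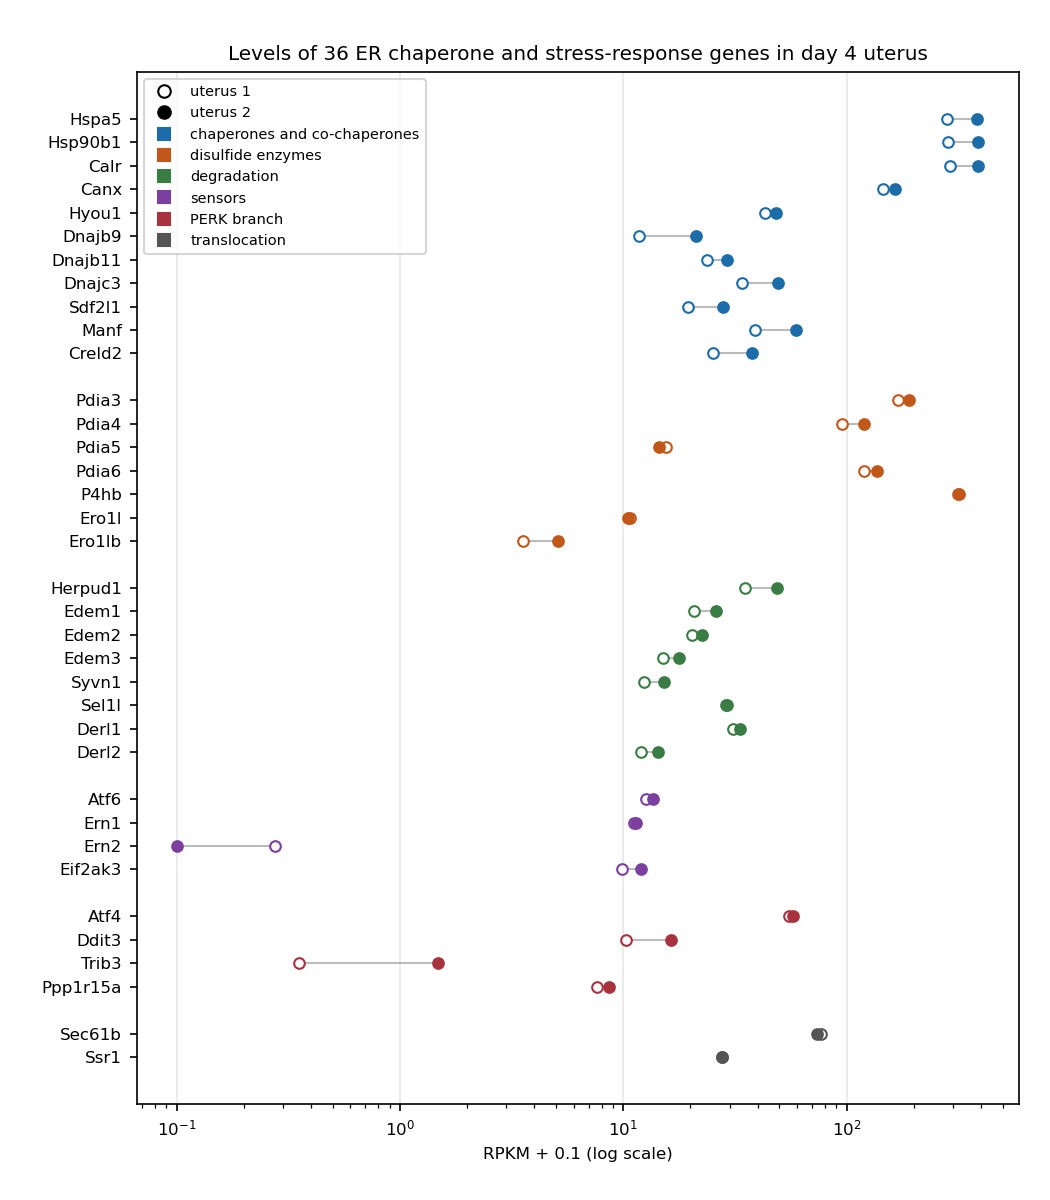
RPKM of each of the 36 genes in uterus 1 (open points) and uterus 2 (filled points), coloured by role, on a log axis of RPKM + 0.1. Hspa5, Hsp90b1, Calr and P4hb lie at the top between 282 and 389 RPKM, and Ern2 and Trib3 lie apart at the bottom.

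The 2 uteri differed in 1 direction for most of these genes. Among the 34 that averaged 1 RPKM or more, 30 had a higher RPKM in uterus 2, against 50.1% of the 13647 genes of the table that averaged as much. The median log2 ratio of uterus 2 over uterus 1, after adding 0.1 RPKM to each value, was 0.25 over the 34 genes and 0.00 over all 13647. The sizes were moderate. None of the 34 was 2-fold apart, against 2.6% of those 13647.

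Each gene's reads were also compared between the 2 libraries by a two-sided exact binomial test, with Benjamini-Hochberg adjustment over the 15061 genes tested. This test compares 2 libraries and covers counting error alone. It called 13 of the 35 genes tested higher in uterus 2 at an adjusted p under 0.05, where 2% of all genes tested were called in that direction. It called 0 of the 35 lower, where 2.34% of all genes were called, and at an unadjusted p under 0.05 the test gave 21 of the 35, all higher in uterus 2. Over all genes tested, 7.34% had such a p and were higher in uterus 2, and 7.68% had one and were lower. The share called also grows with reads. Among genes with at least 100 reads in each library, 12 of 29 ER genes and 3.53% of all genes were called higher in uterus 2. With at least 1000 reads in each, these were 5 of 6 ER genes and 16.4% of all genes. Libraries differ by more than counting. Over 7101 genes with at least 100 reads in each library, the robust SD of the log2 ratio was 0.18, against 0.13 from counting alone. The upper 5% of those genes lay above a log2 ratio of 0.29, and 11 of the 29 ER genes with as many reads lay there, 9 of them among the called genes. None of the 29 lay in the lowest 5%.

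**Figure D2:**
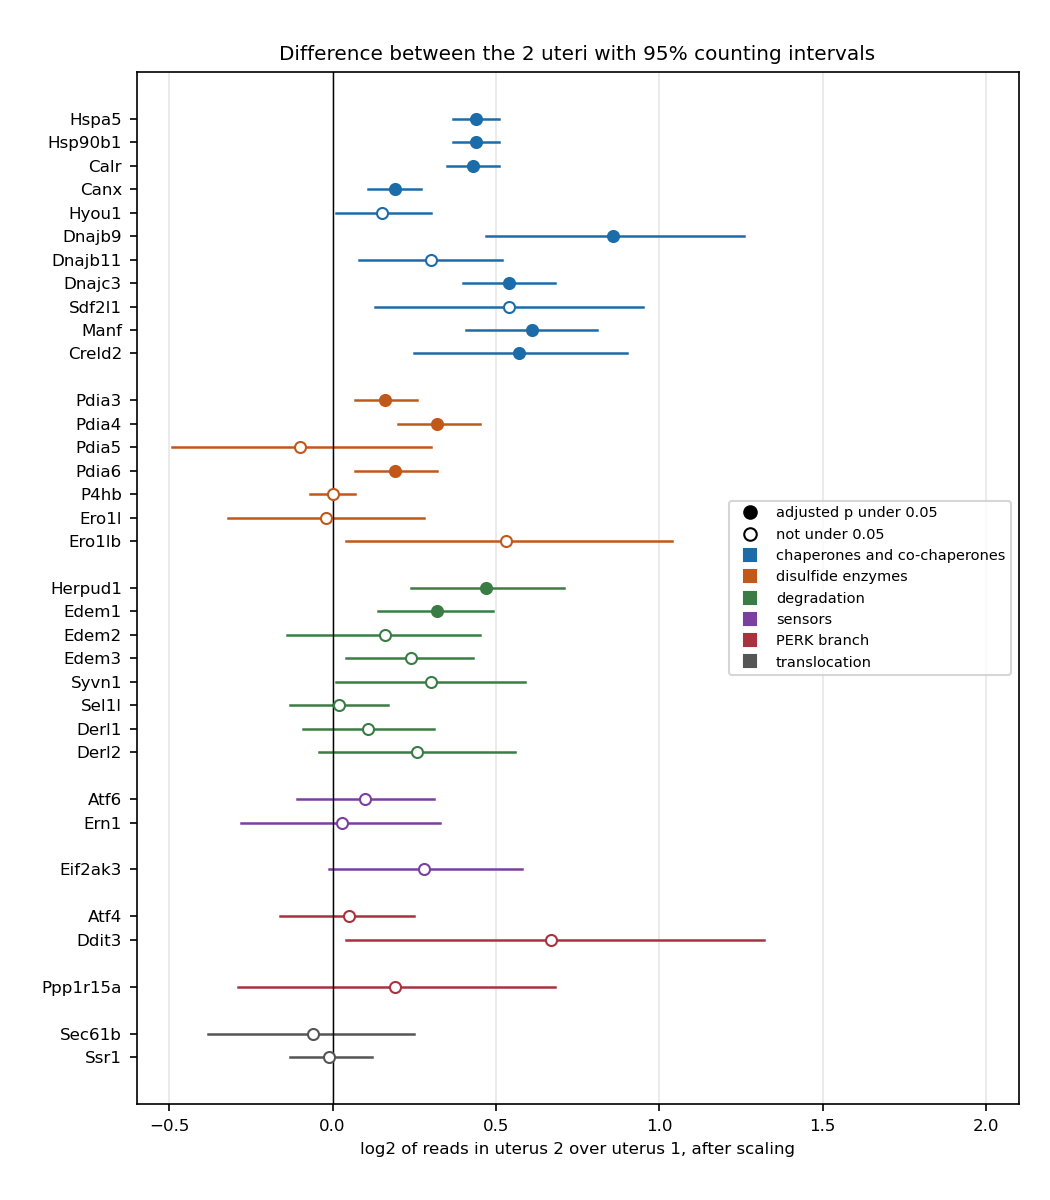
Log2 of scaled reads in uterus 2 over uterus 1 for 34 genes, with exact 95% intervals from the reads as lines; filled points mark an adjusted p under 0.05 in the exact binomial test. Filled points lie to the right of 0, and P4hb, Sel1l and Ssr1 lie near 0 with narrow intervals.

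The major chaperones were among the most abundant of the 36 genes. Hspa5, which encodes BiP, the ER member of the HSP70 family and the protein that holds the sensors inactive, was at 282 RPKM in uterus 1 against 383 in uterus 2. Hsp90b1 (GRP94), the ER member of the HSP90 family, lay at 284 and 386 RPKM. Calr, the lectin chaperone calreticulin, which also stores calcium, lay at 290 and 389 RPKM. The levels of these 3 genes were nearly equal within each uterus, and all 3 were higher in uterus 2.

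For Hspa5 (NM_022310, chr2:34627610-34632049) the fold was 1.36 on 2831 and 4260 reads, with an interval of 1.29 to 1.42 and an adjusted p of 1.2e-33 by the exact binomial test. Hsp90b1 (NM_011631, chr10:86153586-86168189) had a fold of 1.36 (1.30 to 1.42), and Calr (NM_007591, chr8:87365987-87370830) a fold of 1.34 (1.27 to 1.42). Together these 3 genes held 0.218% of the reads of uterus 1 and 0.294% of those of uterus 2. As means they lay at 332 ± 71.0, 335 ± 71.9 and 339 ± 70.4 RPKM (SD, n = 2).

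Canx, the membrane-bound partner of calreticulin, lay at 145 and 165 RPKM. Its fold of 1.14 (1.08 to 1.2) was smaller than that of Calr, and the 2 intervals did not overlap. The test called Canx (adjusted p of 0.00016, exact binomial test), yet its log2 ratio of 0.19 lay below the 0.29 that marks the upper 5% of genes. Hyou1 (GRP170), a large HSP70 relative that acts as an exchange factor for BiP, lay at 43.1 and 48.0 RPKM and was not called (adjusted p of 0.27, same exact test).

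The co-chaperones and small stress-induced proteins of the lumen lay lower in level, with 5 of the 6 genes between 20 and 50 RPKM on average. Dnajb9 (ERdj4), a J-domain partner of BiP, had the largest fold among the called genes. It lay at 11.6 and 21.0 RPKM, a fold of 1.81 (1.38 to 2.39) on 83 and 167 reads. Manf, a secreted protein that binds BiP, lay at 38.9 and 59.2 RPKM, a fold of 1.52 (1.33 to 1.75). Dnajc3 (p58IPK), a co-chaperone that also restrains PERK, lay at 33.8 and 49.2 RPKM, a fold of 1.46 (1.32 to 1.61). Creld2, a lumenal protein induced by ER stress, lay at 25.2 and 37.6 RPKM, a fold of 1.49 (1.19 to 1.86). These 4 genes were called, but Creld2 was not when the smallest reads that fit its ratio were used (66 and 109 in place of 132 and 218). Sdf2l1, a partner of ERdj3, lay at 19.3 and 28 RPKM, a fold of 1.45 with a wide interval (1.09 to 1.93) on 82 and 132 reads, and was not called (adjusted p of 0.13, exact binomial test). Dnajb11 (ERdj3) lay at 23.5 and 29.0 RPKM and was not called (adjusted p of 0.11, same exact test). Of the 11 chaperones and co-chaperones, 8 were called higher in uterus 2, and the median log2 ratio of the 11 was 0.44. Over all genes the share called higher was 2%, and 16.4% of those with at least 1000 reads in each library, which Hspa5, Hsp90b1, Calr and Canx had.

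Of the 7 disulfide enzymes, 3 were called higher in uterus 2 and none lower, where 2% of all genes were called higher and 3.53% of those with at least 100 reads in each library. P4hb, the founding protein disulfide isomerase, which is also the beta subunit of collagen prolyl hydroxylase, was at 316 RPKM in uterus 1 against 317 in uterus 2. Its mean of 317 ± 0.615 RPKM (SD, n = 2) is close to that of Hspa5, but its fold of 1.00 had an interval of 0.95 to 1.05 on 3077 and 3425 reads, which does not overlap that of Hspa5. P4hb (NM_011032) lies at chr11:120421618-120434250.

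Pdia4 (ERp72) lay at 95.5 and 120 RPKM, a fold of 1.25 (1.15 to 1.37), and was called. Pdia3 (ERp57), the isomerase that works with calnexin and calreticulin, lay at 169 and 190 RPKM, a fold of 1.12 (1.05 to 1.19). Pdia6 (P5) lay at 119 and 136 RPKM, a fold of 1.14 (1.05 to 1.24). Pdia3 and Pdia6 were called with adjusted p-values of 0.016 and 0.044 by the exact binomial test, but their log2 ratios of 0.16 and 0.19 were within the robust spread of all well-counted genes or just past it. Pdia6 was not called when the smallest reads that fit the ratio were used for all genes.

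Pdia5 lay at 15.4 and 14.4 RPKM, with an interval of fold from 0.71 to 1.23. The oxidases that recharge the isomerases were the lowest of the 7, yet above the median of all genes (3.23 RPKM on average). Ero1l (now Ero1a) lay at 10.6 and 10.4 RPKM, with an interval of 0.80 to 1.21. Ero1lb (now Ero1b) lay at 3.45 and 4.99 RPKM on 56 and 90 reads, a fold of 1.45 (1.03 to 2.06), and was not called. The levels of the 7 disulfide enzymes spanned from 4.22 to 317 RPKM on average.

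The degradation genes were all between 13 and 41.7 RPKM on average. All 8 were nominally higher in uterus 2, as were 50.1% of all genes averaging 1 RPKM or more, and their median log2 ratio was 0.25. The test called 2 of the 8 higher, against 2% of all genes and 3.53% of those with at least 100 reads in each library. Herpud1, a membrane protein that assembles the retrotranslocation complex and is strongly induced by ER stress, lay at 35 and 48.5 RPKM, a fold of 1.39 (1.18 to 1.63). Edem1, a lectin that picks out misfolded glycoproteins, lay at 20.7 and 25.8 RPKM, a fold of 1.24 (1.10 to 1.41), and was not called with the smallest reads that fit its ratio (233 and 322 in place of 466 and 644).

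The other lectins of that family were not called. Edem2 lay at 20.1 and 22.4 RPKM and Edem3 at 15 and 17.7 RPKM. The ubiquitin ligase Syvn1 (HRD1) lay at 12.3 and 15.2 RPKM, from 173 and 236 reads, for a log2 ratio of 0.30. Its partner Sel1l lay at 28.6 and 29.1 RPKM, a fold of 1.02 (0.92 to 1.13). The membrane proteins Derl1 and Derl2 lay at 30.8 and 33.2 RPKM and at 11.9 and 14.2 RPKM. Syvn1 and Sel1l encode partners in 1 ligase complex, and their intervals overlapped (1.01 to 1.5 for Syvn1).

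The sensors lay near 10 RPKM, apart from Ern2. Atf6 lay at 12.5 and 13.4 RPKM, Ern1 at 11.1 and 11.3 RPKM, and Eif2ak3 at 9.75 and 11.9 RPKM. None was called, and none had an unadjusted p under 0.05 in the exact binomial test. Their intervals of fold were 0.93 to 1.24, 0.82 to 1.26 and 0.99 to 1.49. In both uteri Atf6 was nominally the highest of these 3. Ern2, the IRE1 form of mucus-secreting epithelia, was read 2 times in uterus 1 and listed at 0 in uterus 2, where a count of 0 allows up to 3 reads, or 0.237 RPKM. No fold is given for it, and it was too low to be tested.

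Downstream of PERK, Atf4, the transcription factor whose translation rises when PERK is active, lay at 55.3 and 57.2 RPKM, a fold of 1.03 (0.90 to 1.19). Its reads are uncertain by a common factor, being 366 and 420 for a length of 1725 bases and at least 122 and 140. Ddit3 (CHOP), a factor induced in prolonged stress, lay at 10.2 and 16.2 RPKM on only 34 and 60 reads, a fold of 1.59 (1.03 to 2.50), and was not called (adjusted p of 0.26, exact binomial test). Ppp1r15a (GADD34), which reverses the block on translation, lay at 7.49 and 8.56 RPKM. Trib3, a pseudokinase induced through CHOP, held 2 and 12 reads, or 0.254 and 1.37 RPKM. Its ratio of 5.41 has an interval of 1.2 to 49.7 and an adjusted p of 0.17 (exact binomial test). Of the 4 genes, none passed the adjusted test and Ddit3 and Trib3 had an unadjusted p under 0.05 with higher values in uterus 2, as had 7.34% of all genes tested.

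The 2 translocation genes were not called, and neither had an unadjusted p under 0.05 in the exact binomial test. Sec61b, a subunit of the channel through which chains enter the ER, lay at 77.0 and 73.6 RPKM. Ssr1, a subunit of the translocon-associated complex, lay at 27.6 and 27.5 RPKM, a fold of 1.00 (0.91 to 1.09) on 985 and 1089 reads.

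**Figure D3:**
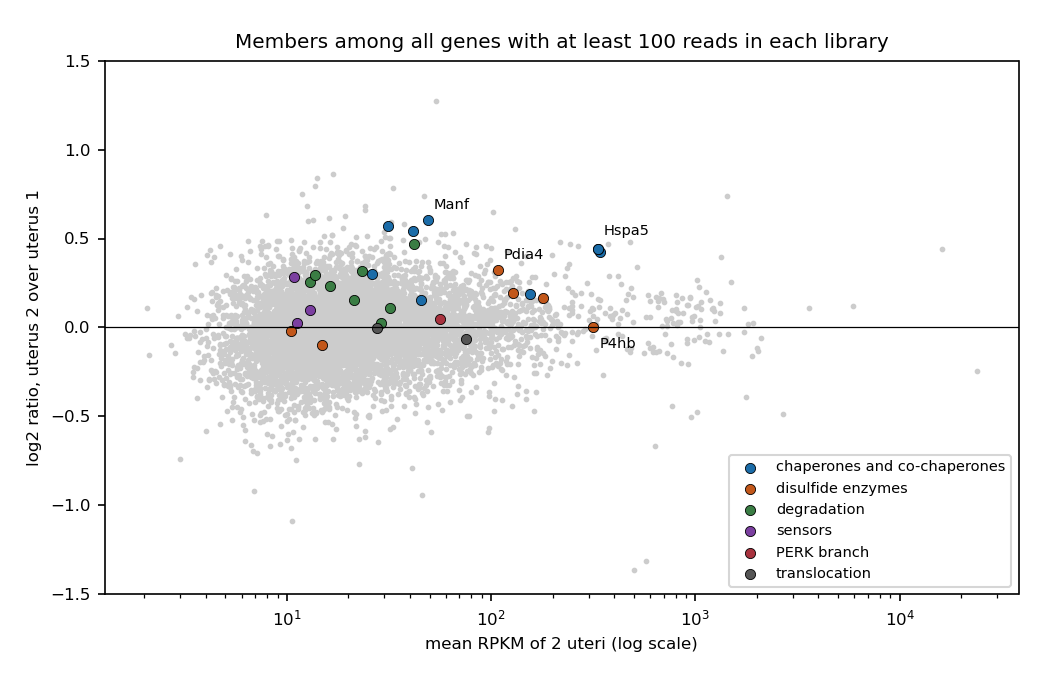
Log2 ratio of uterus 2 over uterus 1 against mean RPKM for 7101 genes with at least 100 reads in each library (grey), with 29 ER genes coloured by role; 3 grey genes lie outside the vertical range. The cluster of Hspa5, Hsp90b1 and Calr stands at about 0.44 while P4hb, at a like level, stands at 0.00.

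The ERSE split can be read against these ratios. All 9 genes with the letters were higher in uterus 2, with a median log2 ratio of 0.44 and a range of 0.19 to 0.57, and 7 of them were called, of which Creld2 and Pdia6 were not with the smallest reads. Over all genes, 2% were called higher, and 16.4% of those with at least 1000 reads in each library, which 4 of the 9 had. Of the 21 genes with a window, no ERSE letters and an average of 1 RPKM or more, 17 were higher, with a median of 0.19 and a range of -0.10 to 0.85, and 5 were called. Of 9 other genes of the table with the letters and that average, 3 were higher in uterus 2, their median log2 ratio was -0.18, and the exact binomial test called none, with 1 at an unadjusted p under 0.05. The 2 sets of ER genes also differ in role. Most of the 9 are chaperones or co-chaperones, whose 11 genes had a median of 0.44. The set without ERSE letters includes Herpud1 (0.47) and Dnajb11 (0.30), which hold ERSE-II. These values are descriptions, and the difference between the 2 sets of ER genes was not tested.

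Further genes of the same pathways, from lists chosen with earlier results of these data known, are given by their counts. Of 30 other folding genes, 29 averaged 1 RPKM or more, 14 of these were higher in uterus 2 and 15 lower, and the median log2 ratio was -0.00. The test called 2 of the 30 higher and 2 lower, against 2% and 2.34% of all genes. The highest was Serpinh1 (HSP47), the collagen chaperone, at 484 and 444 RPKM, called lower in uterus 2 (adjusted p of 0.0028, exact binomial test). The other gene called lower was Fkbp10, a prolyl isomerase for collagen, at 48.1 and 36.3 RPKM. The genes called higher were Rcn1, a calcium-binding protein of the lumen, at 91.4 and 106 RPKM, and Hsph1, a cytosolic HSP70 relative, at 45.9 and 64.0 RPKM. Fkbp10, Rcn1 and Hsph1 were named after their values were seen. So were Xbp1, Hsp90aa1, Hspa1b, Hspa4, Hspa9, Fos, Prdm1, Mzb1, Col1a2, Dcn, Myh11 and Kdr further on.

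Of 24 other translocation and glycosylation genes, 10 were higher and 14 lower, with a median of -0.01. The test called 1 of these 24 higher and 0 lower, against 2% and 2.34% of all genes. Of 17 other degradation genes at that average, 9 were higher and 8 lower, with a median of 0.02, and 1 was called higher. Of 22 other stress-response regulators at that average, 12 were higher and 10 lower, with a median of 0.06, and 2 were called higher. These 2 were Txnip at 127 and 168 RPKM and Xbp1, which encodes the factor that IRE1 activates by splicing its RNA, at 79.0 and 124 RPKM (log2 ratio 0.65, adjusted p of 5.0e-06, exact binomial test). Of genes with at least 1000 reads in each library, as Txnip had, 16.4% were called higher. The table gives 1 value for Xbp1, so spliced and unspliced forms were not told apart.

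The cytosolic and mitochondrial counterparts of the ER chaperones were counted likewise. Of 11 genes, 8 were higher in uterus 2, 5 were called higher and 0 lower, and the median log2 ratio was 0.17. The share of all genes called higher was 2%, and 16.4% with at least 1000 reads in each library, which Hspa8, Hsp90ab1 and Hsp90aa1 had, as had Hspa9 and Hspa4, which were not called. Hspa8, the constitutive cytosolic HSP70, lay at 1149 and 1511 RPKM (log2 ratio 0.39). Hspa5 therefore lay at 0.246 times the level of Hspa8 in uterus 1 and 0.253 times in uterus 2. Hsp90ab1 lay at 604 and 679 RPKM and Hsp90aa1 at 203 and 281 RPKM. The level of Hsp90b1 was 0.470 times that of Hsp90ab1 in uterus 1 and 0.568 times in uterus 2. Neither change of ratio was tested. The heat-inducible Hspa1a, at 3.45 and 7.64 RPKM on 37 and 91 reads, was the single gene of this list past 2-fold, and Hspa1b lay at 12 and 21.8 RPKM. These 2 are near-identical copies, so the split of reads between them is uncertain.

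**Figure D4:**
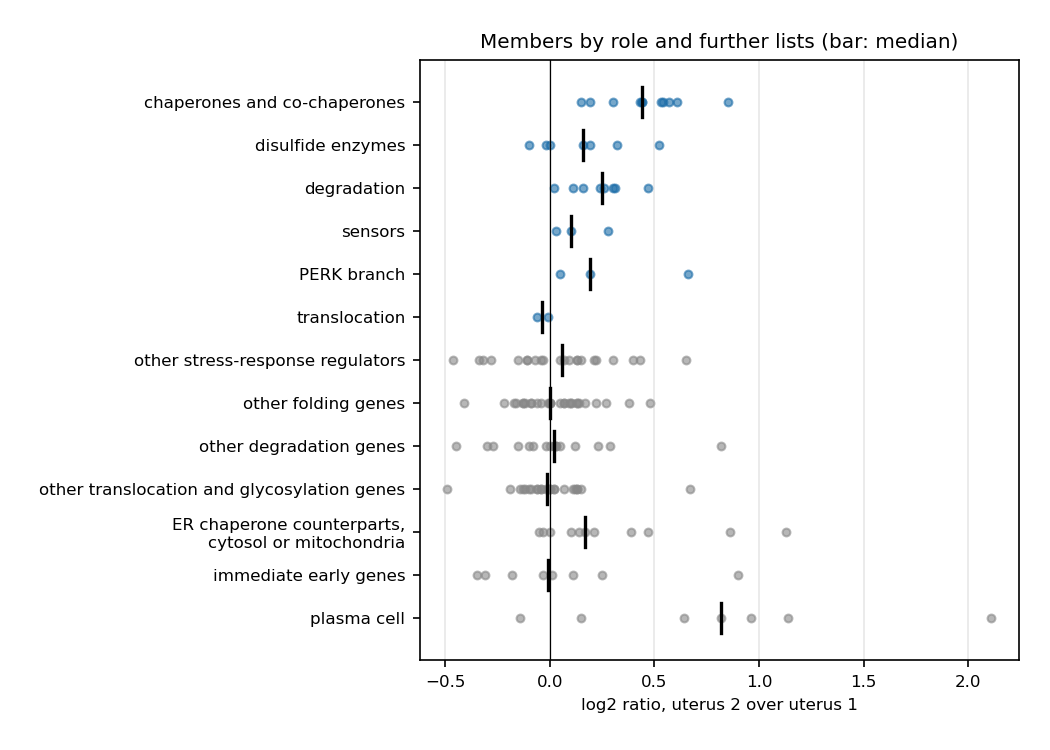
Log2 ratio of uterus 2 over uterus 1 for genes averaging 1 RPKM or more, the ER genes by role in blue and further lists in grey, with the median of each as a bar. The median is 0.44 for chaperones and co-chaperones and -0.00 for other folding genes.

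Marker genes of cell types were set beside these differences. Plasma cells, which are rich in ER, had 6 of 8 marker genes at 1 RPKM or more in both uteri, and 6 of the 7 genes averaging 1 RPKM or more were higher in uterus 2. The summed level of the 8 was 115 RPKM in uterus 1 and 302 RPKM in uterus 2. Igj, the immunoglobulin J chain, lay at 53.2 and 230 RPKM and made up most of the rise in that sum. It was the single gene of the list called, where 2% of all genes were called higher. Sdc1 lay at 32.5 and 36.1 RPKM and Prdm1 at 19.3 and 17.5 RPKM. Prdm1 was the 1 gene of the 7 that was lower in uterus 2. Mzb1, an ER co-chaperone of antibody-secreting cells, lay at 5.47 and 8.56 RPKM on 19 and 33 reads. Tnfrsf17 was listed at 0 in uterus 1 and held 4 reads in uterus 2. The part of plasma cells in the difference was not tested.

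The gland markers, 4 genes, summed to 53.6 and 83.0 RPKM, and Spink3 made up most of both sums at 46.4 and 71.8 RPKM. The exact binomial test called none of the 4. An unadjusted p under 0.05 with a higher value in uterus 2 was found for 2 of them, and for 7.34% of all genes tested. The 3 markers of ovary and oviduct summed to 9.15 and 13.3 RPKM, with Ovgp1 at 5.78 and 9.31 RPKM. None of these was called by the same exact test, and 1 had an unadjusted p under 0.05, with a higher value in uterus 2. The 5 smooth muscle markers summed to 1741 and 1737 RPKM, the 4 endothelial markers to 135 and 131 RPKM, and the 4 leukocyte markers to 71.6 and 76.0 RPKM. Of these, Acta2 and Kdr were called lower in uterus 2 and Myh11 higher. Of all genes tested, 2% were called higher and 2.34% lower. With at least 1000 reads in each library, as Acta2 and Myh11 had, 82 of 499 genes were called higher and 77 lower. Col1a1, Col1a2 and Dcn, given below, had as many. The 6 markers of acinar and liver tissue summed to 9.39 and 8.05 RPKM, with 2 of them at 0 in both uteri. The epithelial markers, 6 genes, summed to 257 and 289 RPKM, with 3 of the 6 higher in uterus 2 and 3 lower, and Krt18, at 70.4 and 94.3 RPKM, was the 1 gene called, higher in uterus 2. The 6 stromal markers summed to 4904 and 4613 RPKM, yet 4 of the 6 were higher in uterus 2 and their median log2 ratio was 0.05. Among them the collagen gene Col1a1 lay at 1184 and 851 RPKM and was called lower, as was Col1a2, and the proteoglycan gene Dcn lay at 456 and 578 RPKM and was called higher. The part of these markers was not tested either. Immediate early genes, which respond to handling of tissue, were divided. Of 8 averaging 1 RPKM or more, 4 were higher and 4 lower. The exact binomial test called none of the 9 genes of that list. Fos alone, at 3.86 and 7.30 RPKM on 31 and 65 reads, had an unadjusted p under 0.05. Of all genes tested, 7.34% had such a p and were higher in uterus 2. The part of handling in the difference was not tested. The longest annotated protein-coding transcripts of the 29 ER genes with at least 100 reads in each library had a median GC content of 49.2%, against 49.5% for 6784 other genes. Other genes in the middle range of that GC content (45.8% to 53.0%) had a median log2 ratio of 0.00. All 7101 genes with as many reads had the same median. The median was 0.19 for all 29, inside that range or not. The part of GC content in the difference was not tested.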

How the data were processed

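Poly-A RNA of whole uterus was sequenced from 2 animals. The deposited tables hold RPKM values that the authors computed per gene, per the series' design text. TopHat, edgeR and the build mm9 are named in the submitters' processing notes, without versions or roles. Which annotation and strand setting were used is not given in the sources used here. All 22740 genes have identical values in both tables. Deposited starts count from 0 and are printed counted from 1.

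RPKM times length and a library's scaling total gives whole reads. Single-exon genes with 1 read (136 and 116 genes) gave scaling totals of 3834174 and 4256101. Each pair of values was then written as fractions with 1 whole length (relative tolerance 1e-11), and multiplied by the smallest factor that brought that length within 1% of an annotated GENCODE M1 transcript. Of 16221 genes with an annotation, 9290 (57.3%) matched one. The others kept the smallest reads, so their reads may be too few.

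Genes were called detected at 1 RPKM. Log2 ratios used a pseudocount of 0.1 RPKM, which understates differences of low genes, and a minimum mean of 1 RPKM. The exact binomial test (scipy 1.17.1) took genes with at least 6 reads. The recovery and the test were checked on simulated data. The naming rule took all 36 genes and allowed, of each further list, the 2 highest, the lowest above 0 and any 2-fold apart. Names beyond it were chosen after their values were seen. The genes and lists were chosen with earlier results of these data known. Motif searches and the GC check were chosen after seeing the values.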

Additional observations from a re-analysis of the deposited data

How the results depend on the processing

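The median log2 ratio of the ER genes lay between 0.23 and 0.25 under all 6 alternatives run (pseudocounts of 0.01 and 1 RPKM, no filter, a mean of at least 10 RPKM, centring on the median of all genes, and the TPM scale). The count of genes higher in uterus 2, added after seeing the data, lay between 28 and 31 under the same 6. No filter gave 2 genes at least 2-fold apart and the TPM scale 1, against 0, because Trib3, and without a filter also Ern2, then entered. The TPM scale changes the unit and gave a median level of 63.6, against 26.9 RPKM, and leaving out a library gave 24.4 to 28.5 RPKM. The exact binomial test called 10 ER genes with the smallest reads that fit the ratio, losing Creld2, Edem1 and Pdia6. In either direction it then called 433 of all 14185 genes tested, against 654 of 15061 in the main test. With the smallest reads that also fit a whole length, an alternative added after seeing the data, it called 11 ER genes, losing Creld2 and Edem1. Of all 14896 genes then tested, 581 were called. Scaling by summed reads gave 13 ER genes, with 657 of all 15061 called. A minimum of 20 reads also gave 13, with 676 of all 13319 called. The count detected was 34 or 35 under 5 alternatives. With 2 libraries, leaving out either leaves no ratio, and the step of a mean to either library is under 1 SD by construction. No paired analysis was possible because the samples form a single group.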
